A study of Mus musculus with 13 samples.

Results

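Interferon response genes were followed across 13 cell lines grown from mouse mammary tumours. The set of 35 genes was chosen by name, from genes known to be switched on by interferon or to control that response. In the deposited tables of 23845 genes, 34 of the 35 stood under these symbols, and Ifit3b stood under an older symbol and was matched by its RefSeq transcript. All 35 had enough reads to be tested, with at least 10 reads in 7 or more of the 13 lines for each of them.

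The study concerns JNK (c-Jun N-terminal kinase) signalling in HER2-driven breast cancer, and compared 6 wild-type (WT) lines with 7 JNK knockout lines. All lines were of strain FVBN/J and each was a separate line of tumour cells. They were first kept on collagen I with 2% serum and later in 10% serum with 20 ng/ml EGF and 10 µg/ml insulin, with no interferon, virus or other stimulus named in the labels. RNA was sequenced in pairs of 150-base reads. The labels do not say which JNK genes were deleted, in which cells, or which HER2 allele drove the tumours. Replicates are numbered in deposit order. The titles of WT replicates 4 and 5 share a number, and whether these came from the same animal is not stated, so the p-values reflect the spread from line to line and nothing more.

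Interferons are secreted proteins that warn cells of infection. Type I interferons bind the receptor IFNAR1-IFNAR2, whose kinases JAK1 and TYK2 phosphorylate STAT2 and other factors. STAT2 and IRF9 are subunits of the transcription factor ISGF3, which binds a DNA sequence called the interferon-stimulated response element (ISRE) before many antiviral genes. Interferon gamma acts through gamma-activated sites (GAS). Tumour cells can keep a low level of this programme without added interferon.

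Each line had between 38298602 and 46689809 expected counts in all. The genotype labels were checked on the JNK genes. Mapk8, which encodes JNK1, was 9.42 ± 1.82 TPM in WT lines (SD, n = 6) and 1.58 ± 0.490 TPM in knockout lines (SD, n = 7), and Mapk9, which encodes JNK2, was 23.6 ± 3.04 against 6.66 ± 2.13 TPM, with no overlap between the groups for either. TPM is a share of all transcripts, scaled for gene length. The keratins separated the genotypes in both directions, with 2 of 7 epithelial markers higher and 2 lower in knockout lines by edgeR. The basal keratin genes Krt5 (0.09 to 0.91 TPM in WT and 69.88 to 9482 TPM in knockout lines, edgeR adjusted p = 0.0020) and Krt14 (60.84 to 288 and 357 to 8728 TPM, edgeR adjusted p = 0.0026) rose with no overlap. The luminal keratin genes Krt18 (2442 to 3810 and 720 to 1426 TPM, edgeR adjusted p = 0.0026) and Krt8 (1555 to 2724 and 334 to 1757 TPM, edgeR adjusted p = 0.047, past the threshold in only 3 of 13 leave-one-out fits) fell. Krt7, another keratin gene of the list, was higher on average in knockout lines (532 to 1495 and 22.5 to 2858 TPM). It did not pass (log2 fold change 1.00, edgeR adjusted p = 0.33). Of 13 leukocyte markers, 11 stayed under 1 TPM in all lines and 5 were listed at 0 throughout. The pan-leukocyte gene Ptprc had at most 7 reads in a line, and the list's summed level of 3.82 to 33.5 TPM in WT and 3.58 to 18.7 TPM in knockout lines came mostly from Cd68. WT replicate 3 held a summed 162 TPM of 8 fibroblast markers, against at most 31.15 TPM in any other line, and 2 of the 7 tested fell in knockout lines. The part of these markers in the results was not tested. In bulk samples such as these, fewer cells of a type and less RNA per cell cannot be told apart. Knockout replicate 2 was the lowest line in the epithelial genes Epcam (33.4 TPM) and Cdh1 (33.1 TPM) and the highest in Krt5 and Krt14, and had the highest summed epithelial markers (19353 TPM).

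Many interferon response genes carry ISRE letters in the 250 bases before their start, and 4 such stretches are given here from RefSeq (build GRCm38.p6, 5′ to 3′ on the gene's own strand). Isg15 encodes a ubiquitin-like antiviral modifier, Bst2 the surface protein tetherin and Gbp7 a guanylate-binding protein. Ifih1, which encodes the RNA sensor MDA5, is shown as a changed gene without a match. The stretches lie at chr4:156200819-156201068 (Isg15, minus strand), chr8:71537473-71537722 (Bst2, minus), chr3:142530086-142530335 (Gbp7, plus) and chr2:62646256-62646505 (Ifih1, minus). Capitals mark matches on either strand to the ISRE core, which is GAAA, any pair of bases, and GAAA again (TTTC, any pair and TTTC on the opposite strand).
Isg15: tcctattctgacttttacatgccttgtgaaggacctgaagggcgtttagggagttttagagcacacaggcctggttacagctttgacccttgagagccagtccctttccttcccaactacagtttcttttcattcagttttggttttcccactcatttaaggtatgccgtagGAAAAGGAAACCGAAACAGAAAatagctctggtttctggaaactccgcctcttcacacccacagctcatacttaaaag
Bst2: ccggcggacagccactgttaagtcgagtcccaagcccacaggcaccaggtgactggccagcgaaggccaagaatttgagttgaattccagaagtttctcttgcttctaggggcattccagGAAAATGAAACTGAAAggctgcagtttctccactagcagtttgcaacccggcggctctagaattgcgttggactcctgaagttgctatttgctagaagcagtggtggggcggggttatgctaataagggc
Gbp7: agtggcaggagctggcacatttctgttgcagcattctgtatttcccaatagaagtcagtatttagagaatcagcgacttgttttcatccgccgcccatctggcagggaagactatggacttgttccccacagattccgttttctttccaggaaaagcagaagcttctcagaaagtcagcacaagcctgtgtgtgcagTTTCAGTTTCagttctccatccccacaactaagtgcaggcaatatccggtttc
Ifih1: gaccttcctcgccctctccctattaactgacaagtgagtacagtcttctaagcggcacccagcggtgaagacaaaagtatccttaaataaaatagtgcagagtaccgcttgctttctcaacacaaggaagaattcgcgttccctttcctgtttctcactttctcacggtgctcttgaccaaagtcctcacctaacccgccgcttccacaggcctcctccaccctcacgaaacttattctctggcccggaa

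In Isg15 3 matches overlapped and ran from 78 to 57 bases before the start, and in Bst2 2 matches overlapped. Gbp7 held 1 match, at 53 to 44 bases before the start. A window was found for 27 of the 35 genes. At least 1 match stood before 14 of these 27 genes (51.9%), against 936 of 27025 genes in the RefSeq table (3.46%). The GAS letters TTCNNNGAA, which read the same on both strands, stood before 5 of the 27 (18.5%), against 8.13% of all genes. The 5 were Bst2, Gbp7, Ifit2, Irf1 and Oas1a, and in Bst2 the GAS letters overlapped the ISRE core. A match is a string of letters and not a measured binding site, and a missing match says only that these letters are not in this window.

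Interferon response genes were lower on average in the JNK knockout lines, and 5 of the 35 passed the test. These were Dtx3l, Ifih1, Ifit2, Irf9 and Gbp7, all lower in knockout lines, while 0 rose (22 of the 35 had an unadjusted p under 0.05 and were lower, against 12.6% of all genes tested). DESeq2 called 17 members lower and limma-voom 1, and neither called any member higher. Over all genes tested, DESeq2 called 977 lower and limma-voom 517, against 545 by edgeR. The test was edgeR's quasi-likelihood F test on the expected counts, called at 0.05 after adjustment over the 13058 genes tested (8.51% of them were called in either direction). Over all genes tested, 4.17% were called lower and 4.33% higher, against 14.3% of the 35 called lower. The log2 fold change, knockout minus WT, was below 0 for 34 of 35 (49.4% of all genes tested) and at -1 or less for 28 of 35 (8.24% of all genes tested). Its median was -1.60 over the 35 genes and 0.01 over all genes tested. The 35 genes varied together across the lines (median of Pearson's r over pairs 0.78), so these counts are not 35 independent results.

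**Figure D1:**
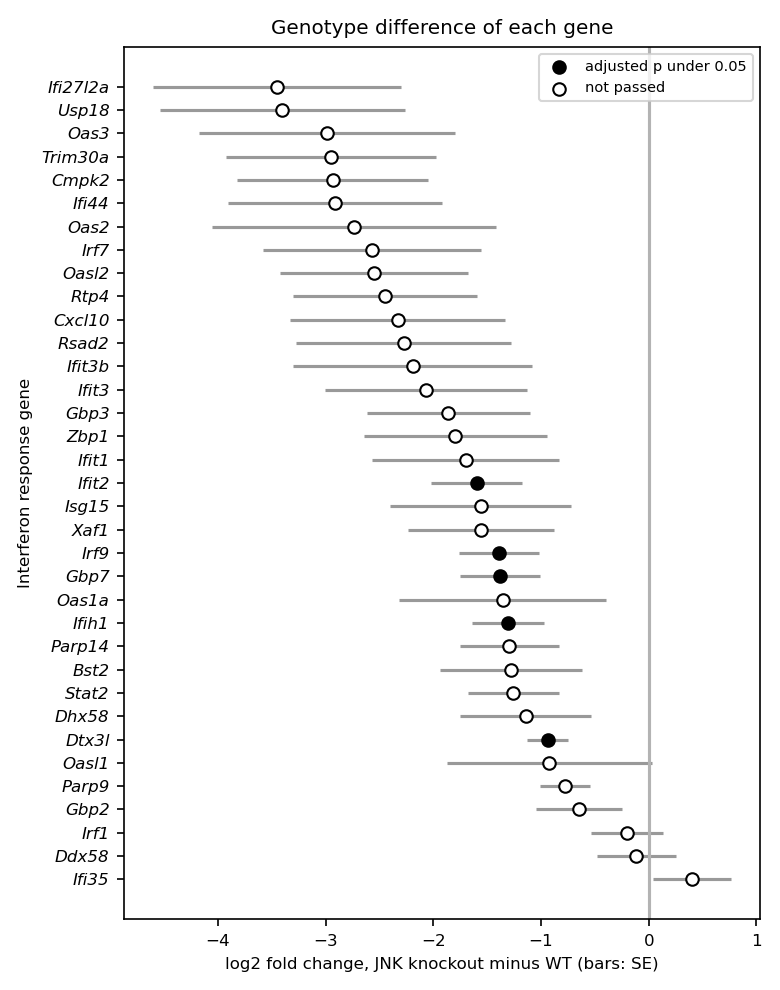
Log2 fold change (knockout minus WT, x axis) of each of the 35 genes with its standard error (bars), from edgeR; filled points passed an adjusted p under 0.05. The points run from -3.45 for Ifi27l2a to 0.40 for Ifi35, and the 5 filled points have standard errors of 0.19 to 0.42, whereas Ifi27l2a and Usp18 have 1.15 and 1.14 and did not pass.

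The size of a difference and its call did not go together. The largest fold changes were those of Ifi27l2a (-3.45, SE 1.15, edgeR adjusted p = 0.077) and Usp18 (-3.40, SE 1.14, edgeR adjusted p = 0.078). Neither passed. Dtx3l, with a log2 fold change of -0.94 (SE 0.19), had the smallest adjusted p, 0.012 by edgeR. For 0 of the 35 genes were all knockout lines below all WT lines in CPM (counts as a share of the scaled library), where 1.97% of all genes tested were, and for 0 of the 35 were they all above, where 2.08% of all genes tested were.

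The calls depended on single lines. Dtx3l passed in all 13 fits that each left out 1 line. Irf9 lost its call without WT replicate 4, 5 or 6 or knockout replicate 1, 2, 3, 6 or 7 (highest edgeR adjusted p 0.078). Ifih1 lost it without WT replicate 4 or 6 or knockout replicate 1, 3, 5 or 7 (highest edgeR adjusted p 0.065). Ifit2 lost it without WT replicate 4, 5 or 6 or knockout replicate 1, 2, 3, 5, 6 or 7 (highest edgeR adjusted p 0.079), and Gbp7 without WT replicate 3, 4 or 6 or knockout replicate 4, 5, 6 or 7 (highest edgeR adjusted p 0.084). The number of members called lower went from 5 to 1 without WT replicate 4, WT replicate 6 or knockout replicate 7, to 2 without knockout replicate 1, 3 or 6, and to 3 without WT replicate 5 or knockout replicate 2 or 5. It was 12 without WT replicate 2. The number called lower over all genes tested changed too, from 545 to 416 without WT replicate 4 and 401 without WT replicate 6. It was 326 without knockout replicate 7, 316 without knockout replicate 1 and 494 without WT replicate 2. Without knockout replicates 2 and 6 it rose to 592 and 579. The median log2 fold change of the 35 was -1.07 without WT replicate 4 and -1.81 without WT replicate 2. Without WT replicate 4 the fold of 17 of the 35 genes moved by over 1.5 times and 19 of 35 were at -1 or less, and without knockout replicate 5 the fold of 4 genes moved that far (Oas2, Usp18, Rtp4 and Ifi27l2a, all to larger differences). The median was -1.39 with WT replicates 4 and 5 summed into 1 sample, where 2 members, Dtx3l and Ifih1, were called.

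TPM values ran somewhat lower in knockout lines for the typical gene, with a median difference over all genes of -0.19 on the log2(TPM + 1) scale, so calls rest on the counts. Irf9, the DNA-binding subunit of ISGF3 (chromosome 14, 55603985 to 55610030), had a lowest, median and highest value of 12.4, 40.0 and 81.5 TPM in WT lines and 8.62, 16.9 and 19.2 TPM in knockout lines. All WT lines but replicate 2 lay above every knockout line. The log2 fold change was -1.39 (SE 0.37, edgeR adjusted p = 0.035), or 2.62-fold lower in knockout lines. Stat2, the subunit that activates transcription (chromosome 10, 128270498 to 128292853), was 5.66, 14.1 and 37.7 TPM in WT and 2.37, 6.59 and 9.57 TPM in knockout lines. Its groups overlapped through WT replicates 2 and 3, and the difference did not pass (-1.26, SE 0.42, edgeR adjusted p = 0.079).

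Irf7, which amplifies interferon production (chromosome 7, 141263183 to 141266499), ranged the most widely of the 4 factors. It was 1.03, 24.1 and 268 TPM in WT lines and 1.18, 7.46 and 21.1 TPM in knockout lines. Its highest value, in WT replicate 4, was 261 times that of WT replicate 2, the lowest of all 13 lines. The genotype difference, with a log2 fold change of -2.57 (SE 1.01), did not pass (edgeR adjusted p = 0.13), and it was -1.45 without WT replicate 4. Irf1, the factor most tied to interferon gamma (chromosome 11, 53770014 to 53778374), was 23.4, 41.6 and 54.6 TPM in WT and 15.6, 21.2 and 67.4 TPM in knockout lines. Its groups overlapped (log2 fold change -0.20, SE 0.33, edgeR adjusted p = 0.74), and its highest value was in knockout replicate 3 and not in a WT line.

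**Figure D2:**
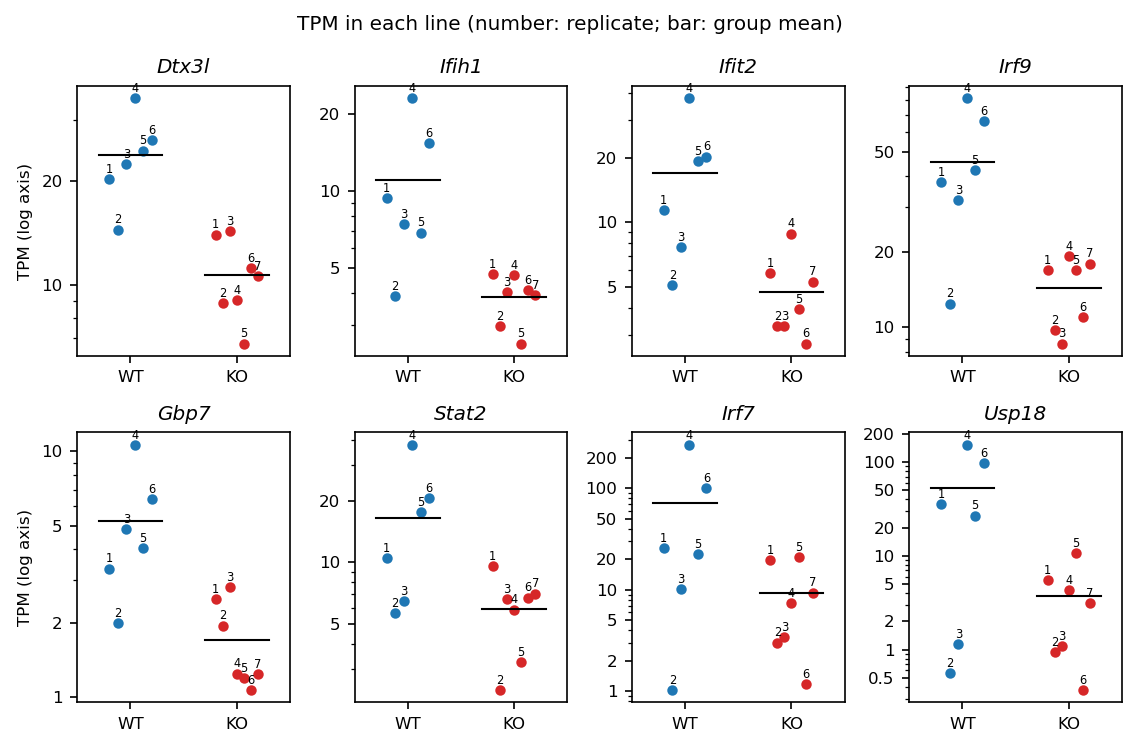
TPM on a log axis of 8 genes in each line; points are lines, numbers are replicates, bars are group means, KO is JNK knockout. WT replicates 4 and 6 are the 2 highest lines in every panel, and WT replicate 2 lies within or below the range of the knockout lines in all panels but Dtx3l, where it is 14.4 TPM.

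Among sensors of foreign nucleic acid, Ifih1 passed the test and the other 3 did not. Ifih1 (MDA5, sensor of long double-stranded RNA) was 3.89, 8.39 and 23.1 TPM in WT and 2.53, 4.02 and 4.72 TPM in knockout lines, with a log2 fold change of -1.30 (SE 0.33, edgeR adjusted p = 0.030). All WT lines but replicate 2 lay above every knockout line, and the knockout lines kept close together. Ddx58 (chromosome 4, 40203777 to 40239825) encodes RIG-I, the related sensor of RNA with a 5′ triphosphate. At 33.3 ± 18.0 TPM in WT and 25.8 ± 11.1 TPM in knockout lines, it had a log2 fold change of -0.11 (SE 0.37, edgeR adjusted p = 0.87). Dhx58, which encodes their regulator LGP2, was 19.7 ± 16.9 against 7.53 ± 3.77 TPM (edgeR adjusted p = 0.25). Zbp1, a sensor of Z-form nucleic acids, was 31.6 ± 36.5 against 7.37 ± 7.13 TPM (edgeR adjusted p = 0.20). Knockout replicate 3 held 21.5 TPM of Zbp1, against at most 10.05 TPM in the other knockout lines, and its log2 fold change went from -1.80 to -0.98 without WT replicate 4.

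The IFIT genes encode proteins that bind foreign RNA, and 4 of them lie within 99460 bases on chromosome 19 (34550550 to 34650009). Ifit2 was 5.13, 15.4 and 37.8 TPM in WT and 2.73, 3.95 and 8.87 TPM in knockout lines, with a log2 fold change of -1.60 (SE 0.42, edgeR adjusted p = 0.035). WT replicates 2 and 3 were inside the knockout range. Its neighbours had larger fold changes and a wider spread, and did not pass. Ifit1 was at -1.70 (SE 0.87), Ifit3 at -2.07 (SE 0.94) and Ifit3b at -2.19 (SE 1.11), with edgeR adjusted p of 0.23, 0.18 and 0.23. Without WT replicate 4 these 3 were at -0.74, -1.25 and -1.20. Ifit3b was 0, 1.67 and 18.7 TPM in WT and 0.02, 0.90 and 1.83 TPM in knockout lines, the widest range among WT lines of any of the 35 genes on the log2 CPM scale. Ifit3 and Ifit3b are close copies, and the authors' counting shares reads between such genes by a model, so their separate values are uncertain.

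The OAS enzymes make oligoadenylates that activate RNase L, and OASL proteins are relatives. Of 5 members 0 passed by edgeR, with log2 fold changes from -2.99 for Oas3 to -0.92 for Oasl1 and edgeR adjusted p from 0.085 to 0.57. An unadjusted p under 0.05 was reached by 2 of them, and DESeq2 called 2 and limma-voom 0. Of all genes tested, 4.17% were called lower by edgeR and 12.6% were lower with an unadjusted p under 0.05. DESeq2 called 977 and limma-voom 517 of the 13058 lower. With WT replicate 4 left out the fold changes stood at -1.41 for Oas3, -1.25 for Oas2, -0.73 for Oas1a, -0.10 for Oasl1 and -1.79 for Oasl2. Oas3 (chromosome 5, 120753098 to 120777684) was 0.09, 2.36 and 36.0 TPM in WT and 0.05, 0.96 and 2.16 TPM in knockout lines. WT replicate 4 was the highest line, and WT replicates 2 and 3, at 0.09 and 0.14 TPM, were inside the knockout range. Oas1a was 118 TPM in WT replicate 4 and 0.24 TPM in knockout replicate 2. Oas2 was low, with 734 reads over the WT and 114 over the knockout lines, and 2 knockout lines had no read of it.

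Isg15 and its protease Usp18 form a pair, since USP18 removes ISG15 from proteins and also dampens the type I receptor. Isg15 was 4.97, 25.3 and 275 TPM in WT and 3.35, 28.8 and 36.9 TPM in knockout lines. Its median was higher in the knockout lines, and WT replicates 4 and 6 alone, at 275 and 144 TPM, lay above every knockout line (log2 fold change -1.56, SE 0.84, edgeR adjusted p = 0.25). Without WT replicate 4 it was -0.65. Usp18 (chromosome 6, 121245906 to 121270917) was 0.56, 31.4 and 153 TPM in WT and 0.37, 3.16 and 10.8 TPM in knockout lines. WT replicates 1, 4, 5 and 6 were above every knockout line, whereas WT replicates 2 and 3, at 0.56 and 1.15 TPM, lay within their range. The log2 fold change of Usp18 was -2.73 without WT replicate 4 and -4.19 without knockout replicate 5.

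Of 9 members grouped as other effectors 0 passed by edgeR, 7 had an unadjusted p under 0.05, and DESeq2 called 5 and limma-voom 0. Over all genes tested, edgeR called 4.17% lower, and 12.6% were lower with an unadjusted p under 0.05. DESeq2 called 977 and limma-voom 517 of the 13058 genes lower. Bst2 (chromosome 8, 71534255 to 71537472) had the highest mean level per length of the 35 genes, and was 76.4, 482 and 1387 TPM in WT and 54.4, 182 and 418 TPM in knockout lines (log2 fold change -1.28, SE 0.66, edgeR adjusted p = 0.24). Ifi35, the next highest, was 29.0, 58.7 and 122 TPM in WT and 47.9, 71.5 and 99.7 TPM in knockout lines. Its fold change was the single positive one, 0.40 (SE 0.36, edgeR adjusted p = 0.51). Ifi27l2a was 0.89, 19.5 and 69.3 TPM in WT and 0, 1.93 and 5.79 TPM in knockout lines, with all WT lines but replicate 2 above every knockout line. Cmpk2, a nucleotide kinase gene beside Rsad2 on chromosome 12, came close to the threshold (-2.93, SE 0.89, edgeR adjusted p = 0.056). Rsad2, which encodes the antiviral enzyme viperin, had a log2 fold change of -2.28. The log2 fold changes of the other 4 were -2.95 for Trim30a, -2.92 for Ifi44, -2.45 for Rtp4 and -1.56 for Xaf1. Without WT replicate 4 Cmpk2 was at -2.15, Rsad2 at -1.11 and Ifi44 at -2.22, and without knockout replicate 5 Rtp4 was at -3.06 and Ifi27l2a at -4.18.

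The guanylate-binding proteins act on membranes of intracellular pathogens and respond strongly to interferon gamma. Gbp7, Gbp3 and Gbp2 lie together on chromosome 3 (142530336 to 142638008). Gbp7 was 2.01, 4.44 and 10.7 TPM in WT and 1.07, 1.25 and 2.80 TPM in knockout lines, with a log2 fold change of -1.38 (SE 0.37, edgeR adjusted p = 0.036). All WT lines but replicate 2 lay above every knockout line. Gbp3 (-1.86, SE 0.76, edgeR adjusted p = 0.14) and Gbp2 (-0.65, SE 0.40, edgeR adjusted p = 0.33) did not pass, and Gbp3 was at -1.21 without WT replicate 4. Cxcl10, a chemokine that attracts CXCR3-bearing lymphocytes, was 6.08 ± 7.90 TPM in WT and 1.02 ± 0.843 TPM in knockout lines (edgeR adjusted p = 0.16), and 0.10 TPM in WT replicate 3.

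Dtx3l, Parp9 and Parp14 lie within 140730 bases on chromosome 16 (35831892 to 35972621). DTX3L is a ubiquitin ligase that works as a complex with PARP9, and PARP14 attaches ADP-ribose to proteins. Dtx3l was 14.4, 23.4 and 34.6 TPM in WT and 6.76, 10.6 and 14.3 TPM in knockout lines, so that every knockout line lay below every WT line in TPM. In CPM the groups touched, with WT replicate 2 at 40.5 below knockout replicates 1 and 3 at 45.3 and 43.9. Parp9 was 26.7, 35.1 and 66.0 TPM in WT and 15.6, 19.2 and 26.3 TPM in knockout lines, again with no overlap in TPM. In CPM knockout replicates 1 and 5, at 56.7 and 62.9, lay above WT replicates 1 and 2, and the count test did not pass (-0.78, SE 0.23, edgeR adjusted p = 0.056). Over all genes tested, 3.77% had all knockout lines below all WT lines in TPM. Parp14 was 16.4 ± 11.6 against 5.78 ± 3.14 TPM (edgeR adjusted p = 0.094). Dtx3l and Parp9 share 458 exon bases on opposite strands in GENCODE M21, and no source used here says whether reads were counted by strand, so those from the shared bases cannot be assigned to either.

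Lines of the same genotype differed widely in the level of these genes. For each line the median deviation of the 35 genes from their mean over 13 lines was taken on the log2 CPM scale. WT replicates 4 and 6 stood highest, at 3.25 and 2.44, and knockout replicate 6 lowest, at -2.65, followed by WT replicate 2 at -1.69 and knockout replicate 2 at -1.18. The other 8 lines lay between -0.51 and 0.75 with both genotypes mixed. WT replicates 1 and 5, at 0.52 and 0.75, were close to knockout replicates 1 and 5, at 0.41 and 0.70. WT replicate 3, at -0.42, was level with knockout replicate 7, also at -0.42.

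**Figure D3:**
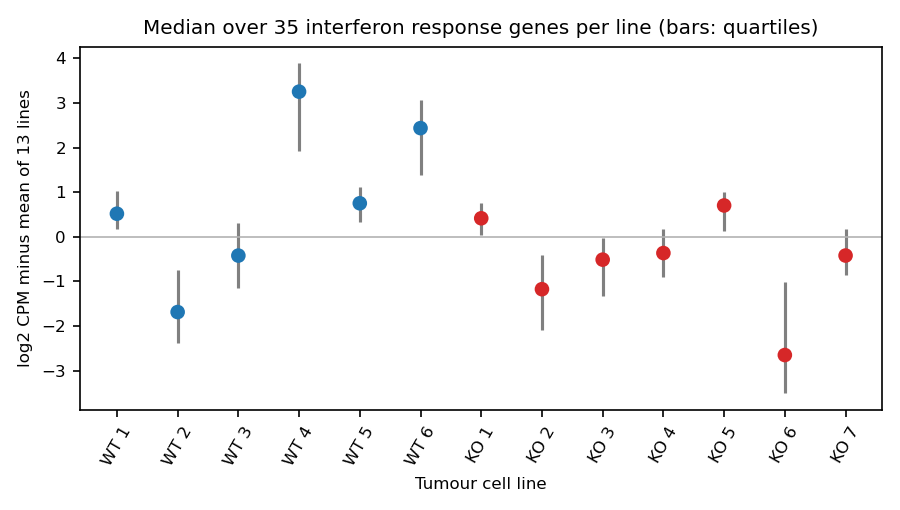
Median over 35 interferon response genes of the log2 CPM minus the gene's mean over 13 lines (y axis), for each line (x axis; blue WT, red JNK knockout, KO); bars span the quartiles of the 35 genes. WT 4 and WT 6 lie at 3.25 and 2.44, WT 2 and KO 6 at -1.69 and -2.65, and the other lines of both genotypes between -1.18 and 0.75.

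WT replicate 4 was the highest of the 13 lines in TPM for 34 of the 35 genes, all but Irf1 (7.79% of all genes tested). WT replicates 4 and 6 were the 2 highest lines for 33 of 35 genes (2.25% of all genes tested). All 35 genes were above their 13-line mean in log2 CPM in both lines. Over all genes tested, 50.8% were above this mean in WT replicate 4 and 51.6% in WT replicate 6. Knockout replicate 6 was the lowest line, alone or tied, for 18 of the 35 (6.49% of all genes tested). In TPM, WT replicate 2 lay within or below the range of the knockout lines for 33 of 35 genes, the exceptions being Dtx3l and Parp9. For WT replicate 3 this was so for 28 of 35. In CPM WT replicate 2 lay within the knockout range for Dtx3l (40.5, range 27.3 to 45.3) and Parp9 (50.4, range 34.8 to 62.9) too. The share over all genes tested was not counted for either line, so neither count can be called particular to these genes.

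The pair of WT lines with a number in common in their titles, replicates 4 and 5, differed in these genes. TPM was higher in WT replicate 4 for 34 of 35 genes, with a median ratio of 3.90, against a median ratio of 0.991 over all genes tested, of which 48.4% were higher in WT replicate 4. The ratio ran from 0.811 for Irf1 and 1.42 for Dtx3l to 24.8 for Oas2 and 16.6 for Cxcl10. With 1 library per line this comparison has no replicate check. In the leukocyte marker list, the summed level was 15.0 TPM in WT replicate 4 and 33.5 TPM in WT replicate 5. Nearly all of it was Cd68, at 14.96 and 33.37 TPM, while Ptprc had 1 and 0 reads in these lines.

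**Figure D4:**
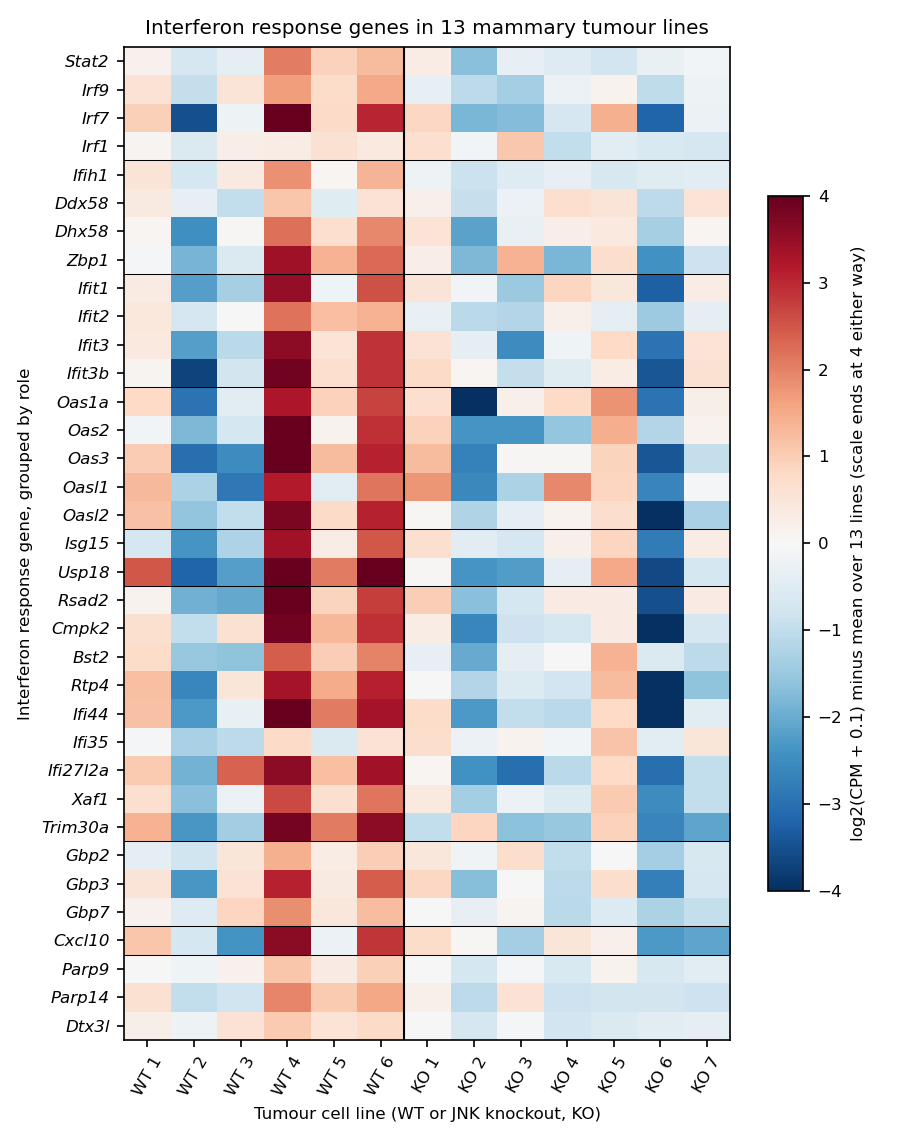
Log2(CPM + 0.1) of 35 interferon response genes (rows, grouped by role) in 13 lines (columns; KO is JNK knockout), as the difference from each gene's mean over the lines; red is higher, blue lower, and the color scale ends at 4 in either direction. The columns WT 4 and WT 6 are red and WT 2, KO 2 and KO 6 mostly blue across rows, while Irf1, Ddx58, Ifi35, Parp9 and Dtx3l stay pale.

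The spread within a genotype was large for these genes. The SD of log2 CPM had a median over the 35 genes of 1.97 among WT lines and 1.45 among knockout lines, against 0.40 and 0.45 over all genes tested. It was larger among WT than among knockout lines for 32 of 35 genes, against 40.8% of all genes tested, and the difference in spread was not tested. Dtx3l, which kept its call without any line, varied little in both genotypes (SD 0.43 and 0.28). Irf1, Irf9, Ifih1, Ddx58, Ifi35, Gbp2, Gbp7 and Parp9 also had an SD under 1 in both.

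The genes varied together from line to line. Over the 595 pairs of the 35 genes, the median of Pearson's r across the 13 lines was 0.78, and it was 0.78 with each genotype's mean removed, against 0.00 over all pairs of genes tested. Within the 6 WT lines the median was 0.92, and within the 7 knockout lines 0.59. It was 0.70 without WT replicate 4 and 0.74 without WT replicate 6. These values describe 13 lines in which all genes of a line share 1 library and its depth, and they carry no test.

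**Figure D5:**
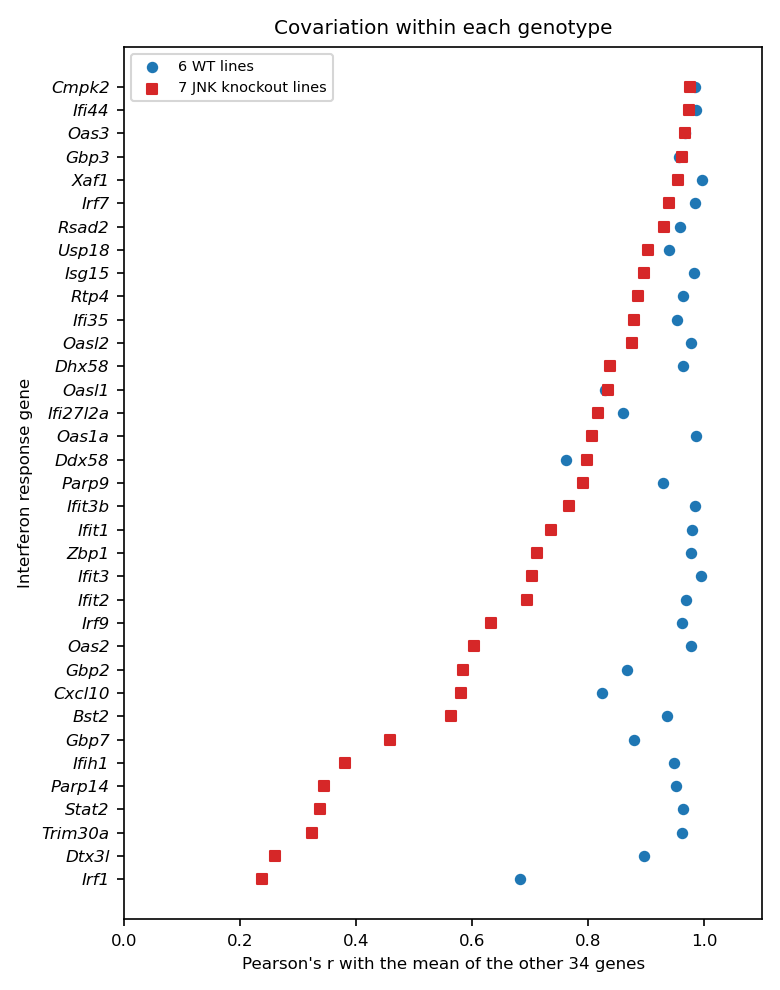
Pearson's r of each gene's log2 CPM with the mean of the other 34 genes (x axis), within the 6 WT lines (blue circles) and within the 7 JNK knockout lines (red squares), sorted by the latter. WT values run from 0.68 for Irf1 to 0.997 for Xaf1 and knockout values from 0.24 for Irf1 to 0.98 for Cmpk2.

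With genotype means removed, Xaf1 (0.97), a pro-apoptotic factor, Irf7 (0.97), Oas3 (0.97) and Isg15 (0.96) followed the other genes most closely. Irf1 followed them least (0.37), and Dtx3l, the member with the smallest adjusted p, next to least (0.70). Of the ISGF3 subunits, Irf9 was at 0.86 and Stat2 at 0.78. In the knockout lines Stat2 (0.34), Ifih1 (0.38), Parp14 (0.34), Trim30a (0.32) and Dtx3l (0.26) were only loosely tied to the rest, although their values were 0.90 to 0.96 in the WT lines. The same 5 genes, in this order, had an SD of log2 CPM of 0.62, 0.21, 0.61, 1.45 and 0.28 among knockout lines. Among WT lines it was 1.03, 0.91, 1.21, 2.59 and 0.43. The difference in r between genotypes was not tested, nor was the part of the smaller spread in it. Genes with an ISRE core match had a median ratio of WT replicate 4 to 5 of 7.51 (14 genes), and those with a window but no match 3.36 (13 genes). Their median log2 fold changes were -1.78 and -1.39, and 1 of the 14 and 4 of the 13 were among the 5 called genes. These differences were not tested, and the ratios rest on 1 library per line. Ifit3 and Ifit3b, which are close copies, both count among the 14. Genes without a window are in neither group.

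Of the 13023 other genes tested, the 10 most like the mean of the 35 across lines, with genotype means removed, included 4 of the interferon pathway lists, Phf11d (r = 0.936), Irgm2 (0.924), Parp10 (0.921) and Ddx60 (0.921). The other 6 were Gmppb (0.951), an enzyme gene of nucleotide sugar synthesis, Apol9b (0.949), Apol9a (0.937), the peptide transporter gene Tap1 (0.935), Oas1b (0.925) and Tgtp1 (0.916). Absence from these lists does not place a gene outside the interferon response. The median over the 13023 genes was 0.03. These values are across 13 lines and carry no test. Gmppb was at 26.5 TPM in WT replicate 4 and 12.9 TPM in WT replicate 2, whereas Apol9b went from 108 to 0.05 TPM between the same lines. Apol9a and Apol9b are close copies, and so their separate values are uncertain. Of the 10, Irgm2 passed the genotype test.

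The upstream genes of the pathway were then considered. Of 11 interferon ligand genes 0 could be tested, all were under 1 TPM in each line, and 7 were listed at 0 in all of them. Ifnb1, which encodes interferon beta, had 6 reads in WT replicate 6 and none in any other line. A count of 0 allows up to 3 reads, which covers counting error only. Ifng had 0 reads in all 13 lines. Among 6 receptor genes 1 fell by edgeR, where 4.17% of all genes tested were called lower. DESeq2 called 2 of the 6 lower and limma-voom 1. Ifnar1, a chain of the type I receptor, was 24.9, 30.5 and 41.0 TPM in WT and 9.51, 17.6 and 22.4 TPM in knockout lines. Its knockout lines all lay below its WT lines in TPM and in CPM, as for 3.77% and 1.97% of all genes tested. Its log2 fold change was -0.71 (SE 0.14, edgeR adjusted p = 0.011), a call kept in all 13 fits that left out 1 line. Ifngr2, a chain of the interferon gamma receptor, did not pass (-0.66, edgeR adjusted p = 0.069).

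Of 4 other IRF genes tested, 14 genes of sensing and induction, and 5 negative regulators 0 passed by edgeR, where 8.51% of all genes tested did. Their median log2 fold changes were 0.13, -0.25 and -0.12, and 0, 3 and 2 of them had an unadjusted p under 0.05. DESeq2 called 1 of the 14 sensing genes lower and none of the others, and limma-voom called none of the 3 lists' genes. The lowest edgeR adjusted p was 0.076, for the RNA-editing enzyme gene Adar (-0.84), and the receptor adaptor gene Myd88 (0.62) and the signalling inhibitor gene Socs1 (1.04) had positive fold changes that did not pass.

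Among 34 other interferon-induced genes tested, 5 fell and 1 rose by edgeR, with a median log2 fold change of -1.03. All genes tested were called lower in 4.17% and higher in 4.33%, so the 1 gene that rose is no more than the share over all genes. DESeq2 called 17 of the 34 lower and limma-voom 0, and each called 1 higher. Of the 13058 genes tested, DESeq2 called 977 lower and 1130 higher, and limma-voom 517 lower and 443 higher. Ifi47, an interferon-induced GTPase gene, was 2.24, 31.9 and 68.2 TPM in WT and 0.31, 1.99 and 4.65 TPM in knockout lines, 11.8-fold lower (log2 fold change -3.56, SE 0.69, edgeR adjusted p = 0.0099). All WT lines but replicate 2 were above every knockout line. The related GTPase genes Irgm1 and Irgm2 were at -1.66 (SE 0.39, edgeR adjusted p = 0.021) and -2.24 (SE 0.55, edgeR adjusted p = 0.027). Samd9l (2.82-fold lower, edgeR adjusted p = 0.041) and Helz2 (-1.90, edgeR adjusted p = 0.047) also fell, and the aminopeptidase gene Lap3 rose by 0.45 (edgeR adjusted p = 0.042). Ifi47 and Irgm1 kept their calls in all 13 fits that left out 1 line, Irgm2 in 9, Samd9l in 5, Lap3 in 3 and Helz2 in 2 of them. WT replicate 2 held 2.24 TPM of Ifi47 and 2.03 TPM of Irgm2, both within the range of the knockout lines.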

How the data were processed

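Gene expression was measured by RNA-seq in 6 WT and 7 JNK knockout lines. The authors deposited RSEM expected counts per gene. The submitters' processing notes name cutadapt, RSEM and the builds mm10 and GRCm38. The authors also deposited TPM for the same genes. No source used here gives the aligner, annotation release or tool versions.

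Expected counts were rounded, filtered with filterByExpr (13058 genes kept), scaled by TMM and tested by the quasi-likelihood F test of edgeR 4.0.16 (R 4.3.3), with genotype as the only term and Benjamini-Hochberg adjustment. SE is the log2 fold change divided by the square root of F. Log2 CPM for correlations and spread used a prior count of 2. Depth was 38298602 to 46689809 counts per line. Positions and promoters are from RefSeq GRCm38.p6 and exons from GENCODE M21.

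The genes, lists and alternatives were chosen with earlier results of these data known. Values by line are given for called members, the 4 transcription factors, the 2 members each with the largest fold change, highest TPM and widest WT range, and beyond the members for called pathway genes and the 10 most alike genes. Isg15, Parp9 and other members named with values were added after their values were seen. Alternatives used DESeq2 1.42.0, limma 3.58.1, other scalings and filters, TPM, and lines left out or summed. One list of pathway genes is not reported here.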

Additional observations from a re-analysis of the deposited data

Results flagged for a closer look

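Of 70 groups examined (35 genes in each genotype, on log2 CPM), 3 held a line farther from the rest than Dixon's 95% limit, of 0.568 for 7 lines and 0.625 for 6. Chance flags about 1 group in 20. All 3 were knockout replicate 6 at the low end. Its gap to the next line took up 0.639 of the knockout range for Ifit3b (log2 CPM -3.85, against -0.68 to 1.12 in the other knockout lines), 0.609 for Oasl2 (-0.82, against 2.28 to 4.27) and 0.583 for Isg15 (0.18, against 2.34 to 3.89). The same line was the lowest, alone or tied, for 18 of the 35 genes.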

How the results depend on the processing

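With DESeq2 size factors, upper-quartile scaling, library size alone, robust empirical Bayes, or either other filter, 5 or 6 members were called lower. DESeq2 called 17, limma-voom 1, limma on log2(TPM + 1) or log2(TPM + 0.1) 8, and the fit with WT replicates 4 and 5 summed 2. Leaving out 1 line gave 1 to 12, and 0 were called higher in any fit. The median log2 fold change ran from -1.82 to -1.07 with 1 line left out and from -1.66 to -1.14 otherwise. Ddx58 ran from -0.28 to 0.15 with 1 line left out, above 0 without WT replicate 4 (0.15), knockout replicate 2 (0.0035) and knockout replicate 6 (0.014), and no other member changed sign. Over all genes, 566 were higher and 545 lower, with DESeq2 1130 and 977, on log2(TPM + 1) 286 and 998, and on log2(TPM + 0.1) 322 and 981. On these 2 TPM scales the median of all genes was -0.19 and -0.23, and the cause was not tested. With 1 line left out, 324 to 649 were higher and 316 to 592 lower. The median correlation was 0.82 on log2(TPM + 1), 0.74 by Spearman and 0.70 to 0.81 with 1 line left out. No paired analysis was possible because the labels give no replicate numbers shared by the groups. Oas2 and Ifit3b rest on few reads in several lines, where depth limits the values.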
